A study of Mus musculus with 12 samples.

Results

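The glutathione, thioredoxin and antioxidant system of the liver was examined through 48 genes. They comprise the NRF2 regulators, NRF2 target enzymes, the enzymes of glutathione synthesis and recycling, the thioredoxin system, glutathione peroxidases, superoxide dismutases and catalase, peroxiredoxins, glutathione transferases and pentose phosphate enzymes. A gene was represented by the probe set annotated to its symbol alone, and by the brightest one where several existed. Of the 48 genes, 42 had such a probe set, out of 18193 genes named in this way on the array, and all 42 lay above the filter on low signal. No probe set was named for Ggt1, Prdx5, Prdx6, G6pdx or Selenbp2, and the 5 probe sets of Prdx1 are shared with Gm21399, so these 6 genes were not analysed here.

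Livers of C57BL/6J mice aged 30 weeks were profiled on 12 Affymetrix Mouse Genome 430 2.0 arrays, 3 for each of control females, control males, LDC females and LDC males. LDC stands for low-dose cadmium. Dams drank water with 100 nM cadmium chloride from 1 week before mating, and their offspring received the same water after weaning until sampling, while dams and offspring of the control groups drank water alone. Per the labels the animals of a group are biological replicates, with no litter named, so animals of one group may be littermates and p-values measure only the spread between these samples. The study asked how long-term cadmium exposure changes hepatic expression and whether the sexes differ.

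Glutathione is a tripeptide thiol that binds metals such as cadmium and reduces peroxides. It is made by glutamate-cysteine ligase (Gclc, Gclm) and glutathione synthetase (Gss), and is returned to its reduced form by glutathione reductase (Gsr) with NADPH from the pentose phosphate pathway. The thioredoxin system (Txn1, Txnrd1) reduces oxidised proteins and peroxiredoxins in parallel. Many of these genes are induced by the transcription factor NRF2 (Nfe2l2), which KEAP1 holds back until electrophiles or metals modify its thiols. Hepatocytes use glutathione transferases to conjugate reactive compounds, and several transferases are known to differ between male and female mouse liver.

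The promoter windows of 5 genes are shown because the results turn on these genes: Gstp1 and Prdx4 lay lower in the LDC arrays of both sexes, Gsta2 and Sod2 gave the smallest p-values for a different response of the sexes, and Srxn1 lay lower in LDC males. Each holds the 250 bases before the annotated start from RefSeq (GRCm38.p6), 5′ to 3′ on the strand of the gene, with the matched letters in capitals. They lie at chr19:4037913-4038162 on the minus strand for Gstp1, chrX:155338461-155338710 on the minus strand for Prdx4, chr9:78347146-78347395 on the minus strand for Gsta2, chr17:13007589-13007838 on the plus strand for Sod2 and chr2:152105274-152105523 on the plus strand for Srxn1.
Gstp1: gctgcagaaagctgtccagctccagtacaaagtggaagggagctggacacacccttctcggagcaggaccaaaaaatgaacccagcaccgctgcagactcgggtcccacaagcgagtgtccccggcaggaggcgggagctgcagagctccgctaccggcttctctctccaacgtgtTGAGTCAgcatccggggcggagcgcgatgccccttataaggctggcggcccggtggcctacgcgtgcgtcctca
Prdx4: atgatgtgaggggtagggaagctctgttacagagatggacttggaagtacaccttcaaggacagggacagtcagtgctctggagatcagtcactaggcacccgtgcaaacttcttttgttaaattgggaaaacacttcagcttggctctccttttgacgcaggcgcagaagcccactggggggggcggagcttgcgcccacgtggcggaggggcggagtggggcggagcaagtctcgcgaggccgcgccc
Gsta2: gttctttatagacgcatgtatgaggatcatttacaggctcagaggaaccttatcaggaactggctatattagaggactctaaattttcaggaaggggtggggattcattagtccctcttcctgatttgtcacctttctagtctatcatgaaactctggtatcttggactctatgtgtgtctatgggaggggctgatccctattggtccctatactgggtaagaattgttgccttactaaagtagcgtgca
Sod2: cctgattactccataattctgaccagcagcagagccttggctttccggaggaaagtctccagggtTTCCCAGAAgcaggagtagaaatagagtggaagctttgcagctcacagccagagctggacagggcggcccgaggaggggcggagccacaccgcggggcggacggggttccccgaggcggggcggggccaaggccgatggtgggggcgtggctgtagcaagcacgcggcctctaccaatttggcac
Srxn1: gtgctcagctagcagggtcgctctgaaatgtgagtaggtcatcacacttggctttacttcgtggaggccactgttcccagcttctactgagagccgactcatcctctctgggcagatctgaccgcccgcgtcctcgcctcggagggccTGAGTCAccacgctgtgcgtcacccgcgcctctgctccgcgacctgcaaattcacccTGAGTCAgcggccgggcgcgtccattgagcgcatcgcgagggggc
Letters were searched on both strands for the core of the antioxidant response element to which NRF2 binds (TGACNNNGC), the AP-1 element (TGAGTCA) and the palindrome of STAT5 (TTCNNNGAA), a factor of the growth hormone pathway. The first 2 patterns can share letters, as they do in the Prdx1 window (GCTGAGTCA). Gstp1 holds the AP-1 letters from base 177 of the window, Srxn1 holds them from bases 149 and 206, and Sod2 holds the STAT5 letters from base 66. The Prdx4 and Gsta2 windows hold none of the 3 patterns. RefSeq windows were found for 42 of the 48 genes. The core of the antioxidant response element occurs in 9 of these 42 genes (21.4%), namely G6pdx, Gclm, Ggt1, Gsta3, Mgst1, Nfe2l2, Prdx1, Sod1 and Txnrd1, against 11.5% of 27025 genes. By promoter it occurs in 10 of the 58 windows of these genes, against 10.2% of 32851 promoters. The STAT5 palindrome occurs in 4 of 42 genes (9.52%, against 8.13% of genes) and in 5 of 58 promoters (against 7.02% of promoters). The AP-1 element occurs in 3 of 42 genes (7.14%, against 5.16% of genes) and in 3 of 58 promoters (against 4.46% of promoters).

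Expression is given as MAS 5.0 signal, a linear intensity without unit in which the trimmed mean of every array is 500. Pearson correlations of log2 signal between arrays of one group ranged from 0.914 to 0.941. All 4 tested markers of the sex of the animal differed between males and females in the labelled direction, with Xist at 16260 to 18730 in control females and 79.9 to 124 in control males. The hepatocyte marker Alb had a signal of 44110 to 58130 over the 4 groups, so the labelled tissue carried its defining marker. Neutrophil markers moved with LDC in opposite directions in the 2 sexes. The summed signal of 8 neutrophil markers lay between 3315 and 3790 in LDC males and between 1229 and 1660 in their controls, with 1 of 6 tested markers called higher. In LDC females it lay between 695 and 1026 and in their controls between 3454 and 6478, with 4 of 6 called lower. The summed signal of 12 macrophage and Kupffer cell markers lay between 30020 and 43520 in LDC males and between 21410 and 21870 in their controls. It overlapped between the female groups, with 0 of 12 called in either sex (limma; 1 of 12 in males and 2 of 12 in females had an unadjusted p below 0.05). By their estimates all 12 were higher in LDC males (median log2 difference 0.71, 9 without overlap) and all 12 lower in LDC females (median -0.88, 0 without overlap). For the difference of these effects 8 had an unadjusted p below 0.05 (limma; 10.3% of all probe sets), and 0 were called. No neutrophil or macrophage marker with a probe set was at 0, although Camp and Elane lay below the filter. No tested marker of lymphocytes, endothelial, stellate, bile duct, adipose, pancreatic acinar or red blood cells, or of hepatocytes and their pericentral and periportal zones, was called for LDC in either sex. In whole liver, fewer cells of a type and less RNA per cell cannot be told apart.

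Log2 signals were compared with limma, and p-values were adjusted over all 27022 probe sets tested. No member was called at an adjusted p below 0.05 for LDC against control in males or in females, where 0.278% and 0.122% of all probe sets were called. At an unadjusted p below 0.05, 9 of 42 members differed in males (3 higher, 6 lower; 10.2% of all probe sets) and 9 in females (6 higher, 3 lower; 9.01%). The methods' t-test, adjusted in the same way, also called 0 members in each sex. The median log2 difference of the members was -0.0016 in males and 0.0562 in females, beside 0.001 and 0.0056 for all probe sets tested. The criterion of the methods, at least 2-fold with an unadjusted p below 0.05, was applied here to limma p-values. The same holds below unless another test is named. In this form 1 member passed in males (Slc7a11, higher; 3.0% of all probe sets) and 1 in females (Gsta2, higher; 2.18%). With p-values of the methods' own test, 0 members passed in either sex. The paper does not name limma, so these counts do not reproduce its own selection. The 3 LDC arrays did not overlap the 3 control arrays for 12 members in males (4 above, 8 below; 16.5% of all probe sets) and for 10 in females (5 above, 5 below; 13.9%). In males these were Hmox1, Slc7a11, Gsta3 and Gstt3 above and Gss, Gsr, Txnrd1, Srxn1, Prdx4, Gstm1, Gstm6 and Gstp1 below. In females they were Sod2, Prdx2, Gsta2, Gsta4 and Mgst3 above and Gsr, Txn1, Prdx4, Gstp1 and Mgst1 below. The 95% interval of the difference lay within 2-fold in both directions for 37 members in males and 33 in females.

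**Figure D1:**
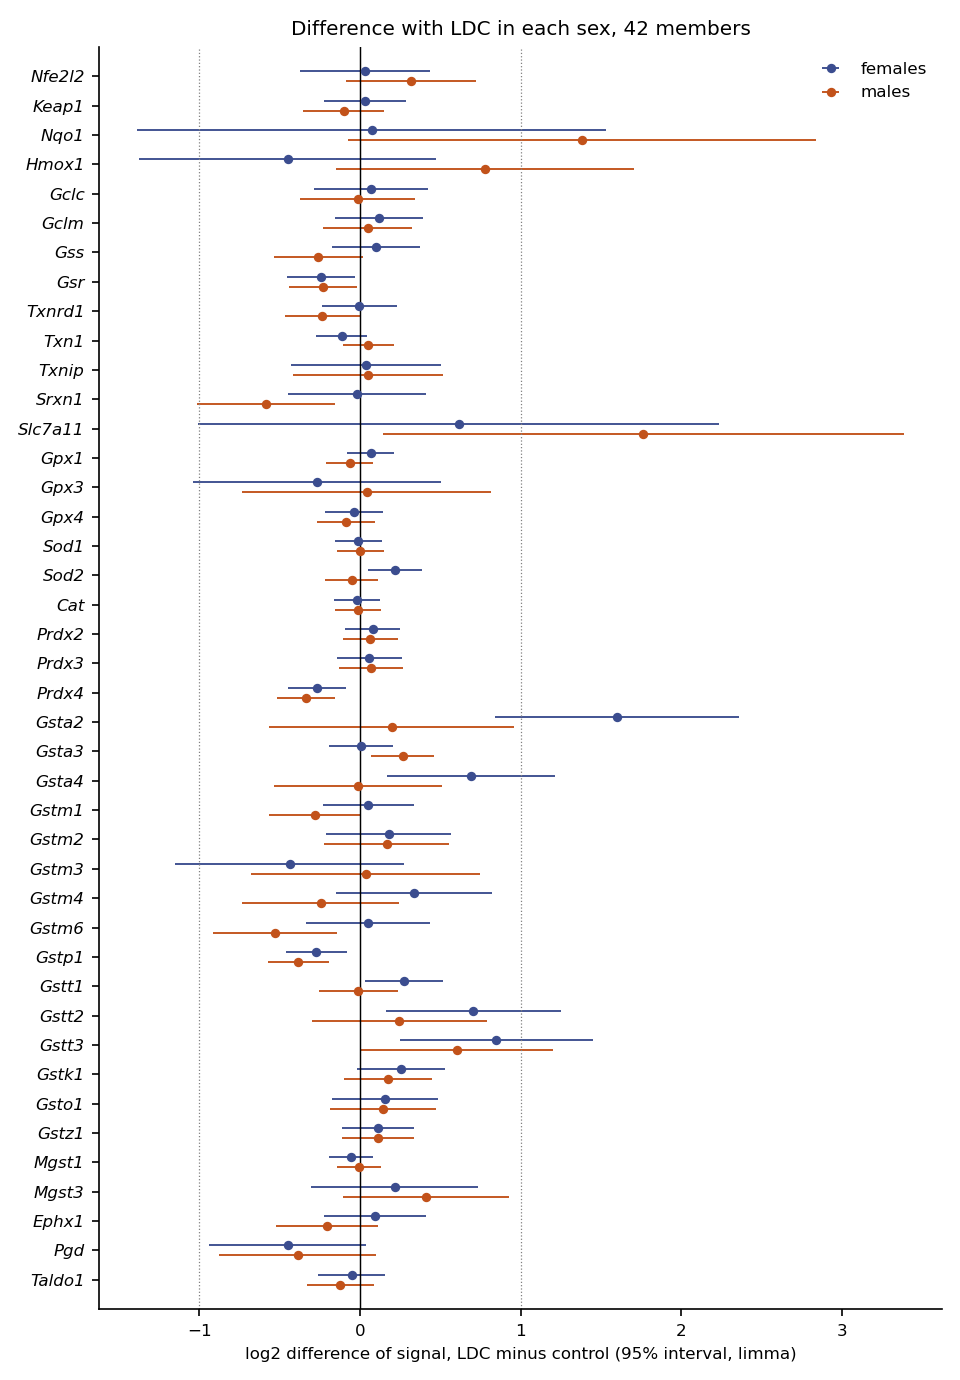
Log2 difference of signal, LDC minus control, for the 42 members in females (blue) and males (orange). Points are limma estimates over 3 arrays a group, bars are 95% intervals, and dotted lines mark 2-fold. Gsta2 in females (1.60) and Slc7a11 in males (1.76) lie farthest to the right, and most other intervals lie within 2-fold.

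The difference between the sexes in their response to LDC was tested directly, and 0 members were called (limma; 0.178% of all probe sets called). An unadjusted p below 0.05 was found for 3 members, all with a lower LDC effect in males than in females (Gsta2, Gstm6 and Sod2, against 10.3% of all probe sets). The mean effect over both sexes also called 0 members (0.0444% of all probe sets called), with 9 at an unadjusted p below 0.05 (5 higher, 4 lower; 9.28%). These contrasts use the same arrays as the comparisons within each sex.

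NRF2 and its inhibitor showed no called difference with LDC. The signal of Nfe2l2, which encodes NRF2, was 2549, 2443 and 1834 in control males and 2457, 2793 and 3212 in LDC males. In females it was 5119, 3358 and 2789.6 in control females and 3605, 3584 and 3975 in LDC females. LDC and control arrays overlapped in both sexes, and the log2 difference was 0.32 (95% interval -0.09 to 0.72, adjusted p = 0.611) in males and 0.03 (95% interval -0.37 to 0.44, adjusted p = 0.976) in females. Keap1, the adaptor that targets NRF2 for degradation, had signals of 1069.8, 1236 and 1216 in control males and 1189, 1005 and 1089 in LDC males, and of 1225, 1333 and 1356 in control females and 1324, 1264 and 1413 in LDC females. Its log2 difference was -0.10 (95% interval -0.35 to 0.15, adjusted p = 0.834) in males and 0.03 (95% interval -0.22 to 0.28, adjusted p = 0.965) in females, again with overlapping arrays. The dimmer second probe set of Keap1 gave 0.36 in males (adjusted p = 0.687) and 0.59 in females (adjusted p = 0.512). That of Nfe2l2, much dimmer than its first, gave 0.52 in males (adjusted p = 0.746) and -0.65 in females (adjusted p = 0.704).

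Among the NRF2 target enzymes, Nqo1, a quinone reductase, had a signal of 307, 275 and 22.9 in control males and 289.6, 331 and 355 in LDC males. Control male 3 stood far below the other male arrays, at a signal under the filter value, and the LDC arrays lay around the other control arrays. The log2 difference in males was 1.38 (95% interval -0.08 to 2.84, adjusted p = 0.52) and 0.16 without control male 3 (adjusted p = 0.911). In females the signals were 610.2, 548 and 373 in control females and 606, 463 and 518 in LDC females, which overlapped, with a log2 difference of 0.07. Hmox1, the haem oxygenase, had signals of 180.4, 412 and 394 in control males and 569, 593 and 439 in LDC males, and all 3 LDC males lay above all 3 control males. Its log2 difference was 0.78 (95% interval -0.15 to 1.71, adjusted p = 0.577) in males, and 0.39 without control male 1 (adjusted p = 0.826). Female arrays were at 474, 278 and 293 in control females and 355, 391 and 109 in LDC females and overlapped, with a log2 difference of -0.45 (95% interval -1.38 to 0.48, adjusted p = 0.815). Hmox1 is also expressed by macrophages, whose summed markers were higher in LDC males and whose marker estimates were lower in LDC females, as given above. Their part in this difference was not tested.

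Slc7a11, the cystine transporter that supplies cysteine for glutathione, was dim, with 54.6, 19 and 12.4 in control males and 58.2, 69.5 and 124 in LDC males. Control males 2 and 3 lay under the filter value of 48.6, as did control females 2 and 3 and LDC female 3. The probe set passed the filter (mean log2 signal of 5.63 against 5.60) only through the LDC groups, where it was higher. The size of its difference is therefore not well measured, and the filter was passed through the values being compared. The LDC males lay above the control males, by a small margin over control male 1, and the log2 difference was 1.76 (95% interval 0.14 to 3.38, adjusted p = 0.441). In females the signals were 61.3, 34.9 and 46.4 in control females and 79.7, 92.7 and 48.2 in LDC females, which overlapped. No member met the criterion in males with 32 added to each signal before the log, with each sex fitted alone, or without control male 3, LDC male 2 or LDC male 3. Srxn1, the sulfiredoxin that repairs overoxidised peroxiredoxins and is another NRF2 target, lay on the other side. Its signal was 641, 546 and 674 in control males and 518, 395 and 341 in LDC males, so that all LDC males lay below all control males (log2 difference -0.59, 95% interval -1.02 to -0.16, adjusted p = 0.326). Female arrays were at 622, 615 and 614 in control females and 578, 491 and 799 in LDC females, with a difference of -0.02 (95% interval -0.45 to 0.41, adjusted p = 0.987). The 3 other tested probe sets of Srxn1 gave male log2 differences of -0.18, -0.48 and 0.43, so they did not share 1 sign. Ephx1, the microsomal epoxide hydrolase, had log2 differences of -0.20 in males and 0.10 in females.

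No enzyme of glutathione synthesis was called with LDC. Gclc, the catalytic subunit of the rate-limiting ligase, was at 5191, 5521 and 3628 in control males and 4261, 4151 and 5700.4 in LDC males, and at 8384, 7505 and 8368 in control females and 7062, 8649 and 9939 in LDC females. Its log2 difference was -0.01 (95% interval -0.37 to 0.34, adjusted p = 0.988) in males and 0.07 (95% interval -0.29 to 0.42, adjusted p = 0.94) in females. The second Gclc probe set, nearly as bright, gave -0.22 in males and 0.27 in females, with a difference of the effects of -0.48 (adjusted p = 0.388). Gclm, the modifier subunit, was at 5144, 5487 and 4359.5 in control males and 5365, 4491 and 5639 in LDC males, and at 5149, 4434 and 6210.3 in control females and 5724, 5671 and 5611 in LDC females, with differences of 0.05 (95% interval -0.23 to 0.32, adjusted p = 0.942) and 0.12 (95% interval -0.15 to 0.39, adjusted p = 0.837) in males and females. All 4 intervals given for the ligase subunits excluded a change of 2-fold. Glutathione reductase, Gsr, was at 3015, 2979 and 3301 in control males and 2849, 2458 and 2634 in LDC males, and at 2900.3, 2753 and 3220.5 in control females and 2477, 2489.9 and 2512 in LDC females, so that the LDC arrays lay below the control arrays in each sex. The log2 difference was -0.23 (95% interval -0.44 to -0.02, adjusted p = 0.442) in males and -0.24 (95% interval -0.45 to -0.03, adjusted p = 0.479) in females, while a second, similarly bright probe set gave -0.18 and 0.13. Gss had log2 differences of -0.26 (95% interval -0.53 to 0.02, adjusted p = 0.522) and 0.10 (95% interval -0.17 to 0.38, adjusted p = 0.87). Its second probe set had the opposite sign in each sex (0.39 and -0.12).

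In the thioredoxin system, Txnrd1, the cytosolic thioredoxin reductase, was at 2585, 3144 and 2978 in control males and 2577, 2348 and 2462 in LDC males. All LDC males lay below all control males, with LDC male 1 close to control male 1, and the log2 difference was -0.23 (95% interval -0.47 to -0.0001, adjusted p = 0.488). In females the signals were 3701, 2940.2 and 3316 in control females and 3215, 3441 and 3236 in LDC females, with a difference of -0.0038 (95% interval -0.24 to 0.23, adjusted p = 0.995). The 2 dimmer probe sets of Txnrd1 had positive differences in both sexes (0.30 and 0.75 in males, 0.74 and 0.44 in females), none of them called. Thioredoxin itself, Txn1, had log2 differences of 0.05 (95% interval -0.11 to 0.21, adjusted p = 0.873) in males and -0.11 (95% interval -0.27 to 0.05, adjusted p = 0.699) in females, and its inhibitor Txnip had 0.05 and 0.04. By its brightest probe set, no member of this system exceeded 2-fold at either end of its interval.

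Superoxide dismutases, catalase and glutathione peroxidases remove superoxide and peroxides. Across catalase (Cat), the cytosolic superoxide dismutase Sod1, glutathione peroxidases Gpx1 and Gpx4, and mitochondrial Sod2, log2 differences with LDC ranged from -0.09 to 0.07 apart from Sod2 in females. Sod2 was at 8076, 8875 and 8487 in control females and 10055, 9451 and 10106 in LDC females, and all LDC females lay above all control females (log2 difference 0.22, 95% interval 0.05 to 0.39, adjusted p = 0.411). Male signals were 13487, 12186 and 12078 in control males and 12419.9, 12134 and 11837 in LDC males, which overlapped (log2 difference -0.05, 95% interval -0.22 to 0.11, adjusted p = 0.878). The difference between these effects was -0.27 (95% interval -0.51 to -0.04, adjusted p = 0.42). Of its 3 dimmer probe sets, one gave 0.25 in females and -0.10 in males, while the others were positive in both sexes (0.16 and 0.17 in females, 0.24 and 0.52 in males). Gpx3, the plasma peroxidase, was dimmer and had wide intervals, with log2 differences of 0.04 (95% interval -0.73 to 0.81, adjusted p = 0.984) in males and -0.27 (95% interval -1.04 to 0.50, adjusted p = 0.879) in females.

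Prdx4, the peroxiredoxin of the endoplasmic reticulum, had the second smallest p-value among the members for LDC in both sexes. Its signal was 6533, 6879 and 6426 in control males and 5652, 4922 and 5188 in LDC males, and 7923, 7707 and 8738 in control females and 6859.7, 6745 and 6612 in LDC females. In each sex every LDC array lay below every control array. The log2 difference was -0.33 (95% interval -0.51 to -0.15, adjusted p = 0.147) in males, -0.27 (95% interval -0.45 to -0.09, adjusted p = 0.329) in females and -0.30 (95% interval -0.43 to -0.17, adjusted p = 0.0979) as the mean of both, which corresponds to 1.23-fold lower signal. Its 2 other tested probe sets had negative differences in both sexes as well, -0.24 and -0.07 in males and -0.55 and -0.34 in females, none of them called. Prdx2 and Prdx3, of the cytosol and the mitochondrion, had log2 differences between 0.06 and 0.08 in either sex. A second, dimmer probe set of Prdx2 gave 0.43 in males and -0.42 in females (adjusted p = 0.369 and 0.45).

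Gstp1, the pi class transferase, had the smallest p-value for LDC in males. Its signal was 53748, 51099 and 49767 in control males and 40639, 41096 and 36946 in LDC males. Female signals were 23973, 20328 and 20897 in control females and 19992, 17090.5 and 16935 in LDC females. All LDC arrays lay below all control arrays in both sexes, at mean signals of 51538 ± 2027 (SD, n = 3) against 39560.3 ± 2276 (SD, n = 3) in males. The log2 difference was -0.38 (95% interval -0.57 to -0.19, adjusted p = 0.113) in males, -0.27 (95% interval -0.46 to -0.08, adjusted p = 0.352) in females and -0.33 (95% interval -0.46 to -0.19, adjusted p = 0.08) as the mean. It was not called in any of these, but leaving out LDC female 1 gave an adjusted p of 0.042 for the mean (log2 difference -0.37). Gstp1 and Gstp2 are close copies, and probes may detect transcripts of both.

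Gstp1, Prdx4 and Gsr were the 3 of 42 members whose LDC arrays lay below the control arrays in both sexes, against 0.477% of all probe sets, and 0 members lay above in both. These 3 were singled out after their values were seen. The male and female comparisons share no array. Of the 42 members, 26 had the same sign in both sexes. None of the 3 was called, and the second Gsr probe set did not share the direction in females. The summed hepatocyte markers lay between 305700 and 311600 in LDC males and between 314500 and 348700 in their controls, and overlapped in females. Their part in the differences, and that of the neutrophil markers given above, was not tested.

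Alpha class transferases conjugate lipid peroxidation products and drugs. Gsta2 had the largest difference of any member in females. Its signal was 4238, 3218 and 1059.6 in control females and 6886, 7848 and 7445 in LDC females. All LDC females lay above all control females, and control female 3 was the lowest. The means were 2839 ± 1623 (SD, n = 3) and 7393 ± 483 (SD, n = 3), and the log2 difference was 1.60 (95% interval 0.84 to 2.36, adjusted p = 0.132), or 3.03-fold. Male signals were 9772, 7722 and 7209 in control males and 9264, 7394 and 11989 in LDC males, which overlapped (log2 difference 0.20, 95% interval -0.56 to 0.96, adjusted p = 0.905). The male minus female difference of the effects was -1.40 (95% interval -2.48 to -0.33, adjusted p = 0.363). Without control female 1 the female difference was called (adjusted p = 0.0261), and without control female 3 it was 0.999 on the log2 scale and was not. A further probe set, annotated jointly to Gm3776, Gsta2 and Gsta1, was not used, and cross-hybridisation among alpha class transcripts is possible.

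Gsta4, which acts on 4-hydroxynonenal, was at 3251, 3568 and 1530.5 in control females and 4345, 4571 and 3753 in LDC females. The LDC females lay above the control females, with control female 3 again the lowest (log2 difference 0.69, 95% interval 0.17 to 1.21, adjusted p = 0.413). In males it was at 5375, 3789.9 and 4305 in control males and 3749, 4581 and 4961 in LDC males, with a difference of -0.01, and the difference of the effects was -0.70 (95% interval -1.44 to 0.04, adjusted p = 0.515). Gsta3 was higher in all LDC males than in all control males (log2 difference 0.27, 95% interval 0.07 to 0.46, adjusted p = 0.334) and differed by 0.01 in females. Its dimmer probe set gave 0.63 in males (adjusted p = 0.309) and 0.36 in females.

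All 3 theta class transferases had positive estimates in females. Gstt3 was at 2589, 3788 and 1475 in control females and 3423, 5796 and 4258 in LDC females, and at 2635, 2046 and 1598 in control males and 2944, 2885 and 3549.6 in LDC males. Female arrays overlapped, while all LDC males lay above all control males. The log2 difference was 0.85 (95% interval 0.25 to 1.45, adjusted p = 0.354) in females, 0.60 (95% interval 0.003 to 1.20, adjusted p = 0.484) in males and 0.73 (95% interval 0.30 to 1.15, adjusted p = 0.229) as the mean. Gstt2 had a log2 difference of 0.71 (95% interval 0.16 to 1.25, adjusted p = 0.414) in females, with overlapping arrays, and 0.25 in males. Without control female 2 it was 1.05 in females and was called (adjusted p = 0.0431), and in the other fits that left out 1 array it was not, with a lowest value of 0.50 without control female 3 and adjusted p up to 0.725. The female difference of Gstt3 was 0.49 without control female 3, and its adjusted p reached 0.723. Gstt1 gave 0.27 (95% interval 0.03 to 0.52, adjusted p = 0.499) in females and -0.01 in males.

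Mu class transferases, which conjugate epoxides and quinones, did not share a direction. Gstm6 was at 4239, 3338 and 4115 in control males and 2842, 2548 and 2683 in LDC males, with all LDC males below all control males. Female signals were 3067, 4778 and 2549 in control females and 3160.5, 3881 and 3399 in LDC females and overlapped. The log2 difference was -0.53 (95% interval -0.91 to -0.14, adjusted p = 0.321) in males and 0.05 (95% interval -0.33 to 0.44, adjusted p = 0.96) in females, and the difference of the effects was -0.58 (95% interval -1.13 to -0.04, adjusted p = 0.461). Gstm1 also lay lower in all LDC males (log2 difference -0.28, 95% interval -0.57 to 0.004, adjusted p = 0.495). Gstm2, Gstm3 and Gstm4 overlapped in both sexes, with log2 differences between -0.44 and 0.34. Members of this family are close in sequence, and their probe sets may share transcripts.

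Among the remaining transferases, Gstk1 (mitochondrial and peroxisomal), Gsto1, Gstz1 and the microsomal Mgst1 and Mgst3 had log2 differences between -0.06 and 0.41 in either sex, none with an unadjusted p below 0.05. The pentose phosphate enzymes Pgd and Taldo1, which bear on NADPH supply, had negative differences in both sexes by their brightest probe sets (-0.39 and -0.12 in males, -0.45 and -0.05 in females), and the mean for Pgd was -0.42 (95% interval -0.76 to -0.07, adjusted p = 0.434). The dimmer probe sets of Pgd gave -0.21, 0.10 and 0.01 in males and -0.36, -0.16 and -0.26 in females. Their means were -0.28, -0.03 and -0.13, and none of them was called.

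Across the 17 transferases, 14 differences were positive in females (median log2 difference 0.18, 5 higher and 1 lower at an unadjusted p below 0.05) and 10 in males (median 0.11, 2 higher and 2 lower). Control female 3 was the lowest of the 3 control females for 13 of the 17 and the lowest of all 12 arrays for 6. Its median deviation from the mean of the 12 arrays was -0.36 on the log2 scale, beyond that of any other array (-0.19 to 0.23). Without it, 10 of 17 female differences were positive, the median was 0.05, and 1 was higher and 2 were lower at an unadjusted p below 0.05. Without control female 2 the female median was 0.31, with 9 higher. In males 14 of 17 were positive with a median of 0.21 without control male 1, and the median fell to 0.07 without LDC male 1, to 0.03 without control male 3 and to 0.02 without LDC male 3. The number of members at the criterion of the methods in females was 0 without this array, 3 without control female 2 and 2 without LDC female 1.

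**Figure D2:**
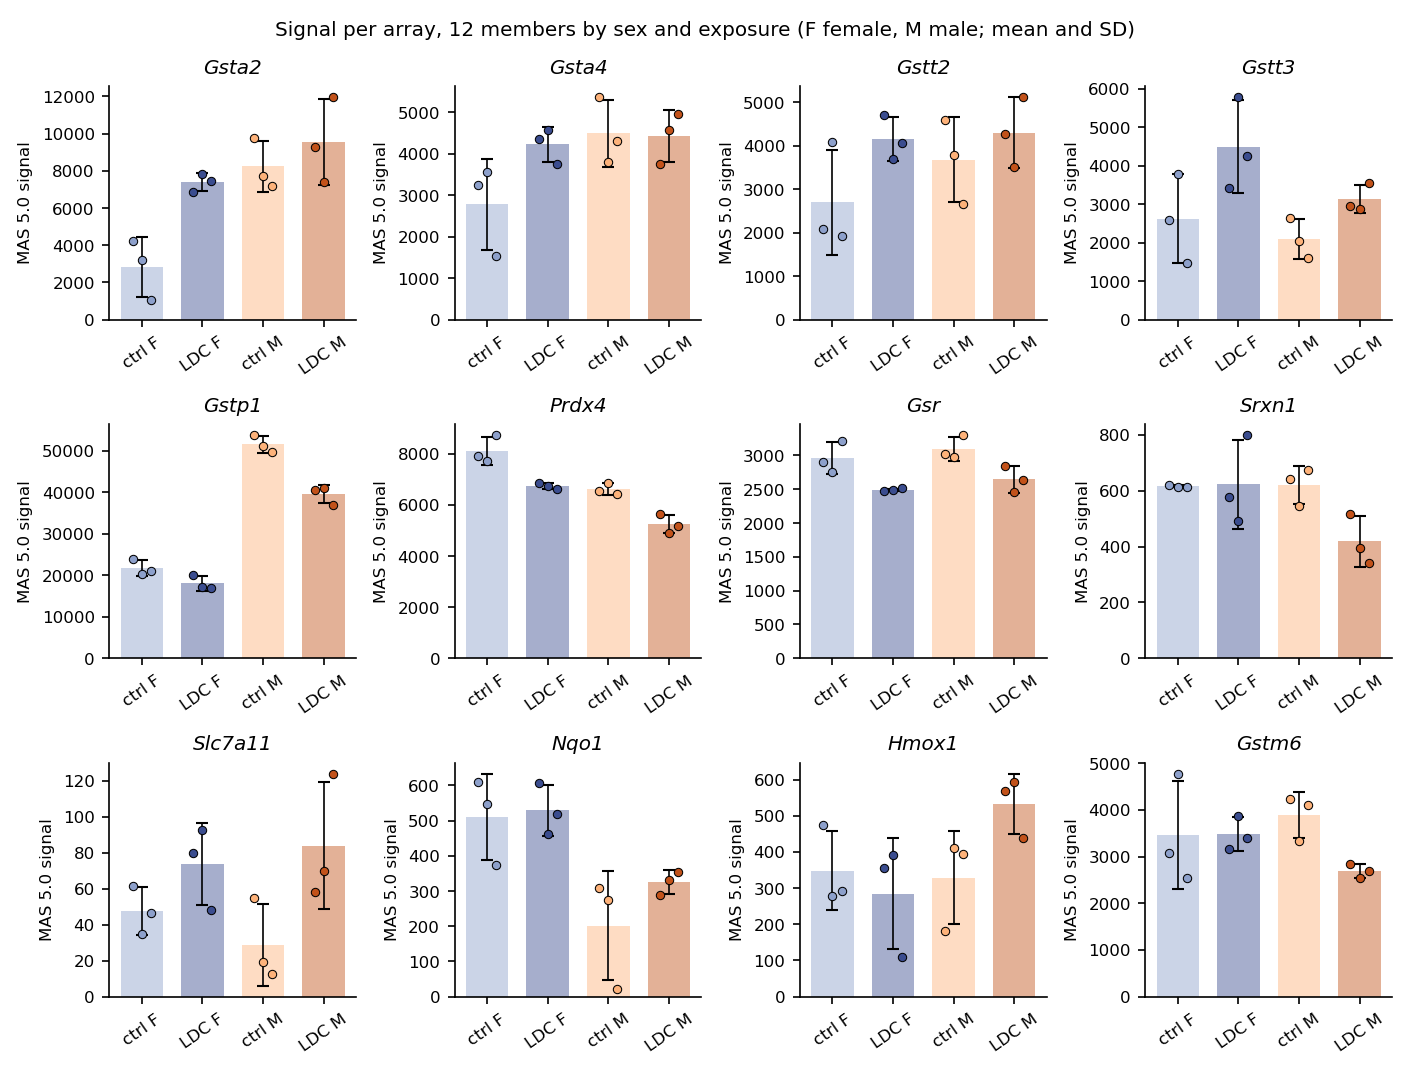
MAS 5.0 signal on a linear axis for 12 members, with bars at the mean of 3 arrays, error bars of 1 SD and a point per array. Gsta2, Gsta4, Gstt2 and Gstt3 vary widely among control females, Gstp1, Prdx4 and Gsr are lower in LDC arrays of both sexes, and a single control male at 22.9 stands out for Nqo1.

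**Figure D3:**
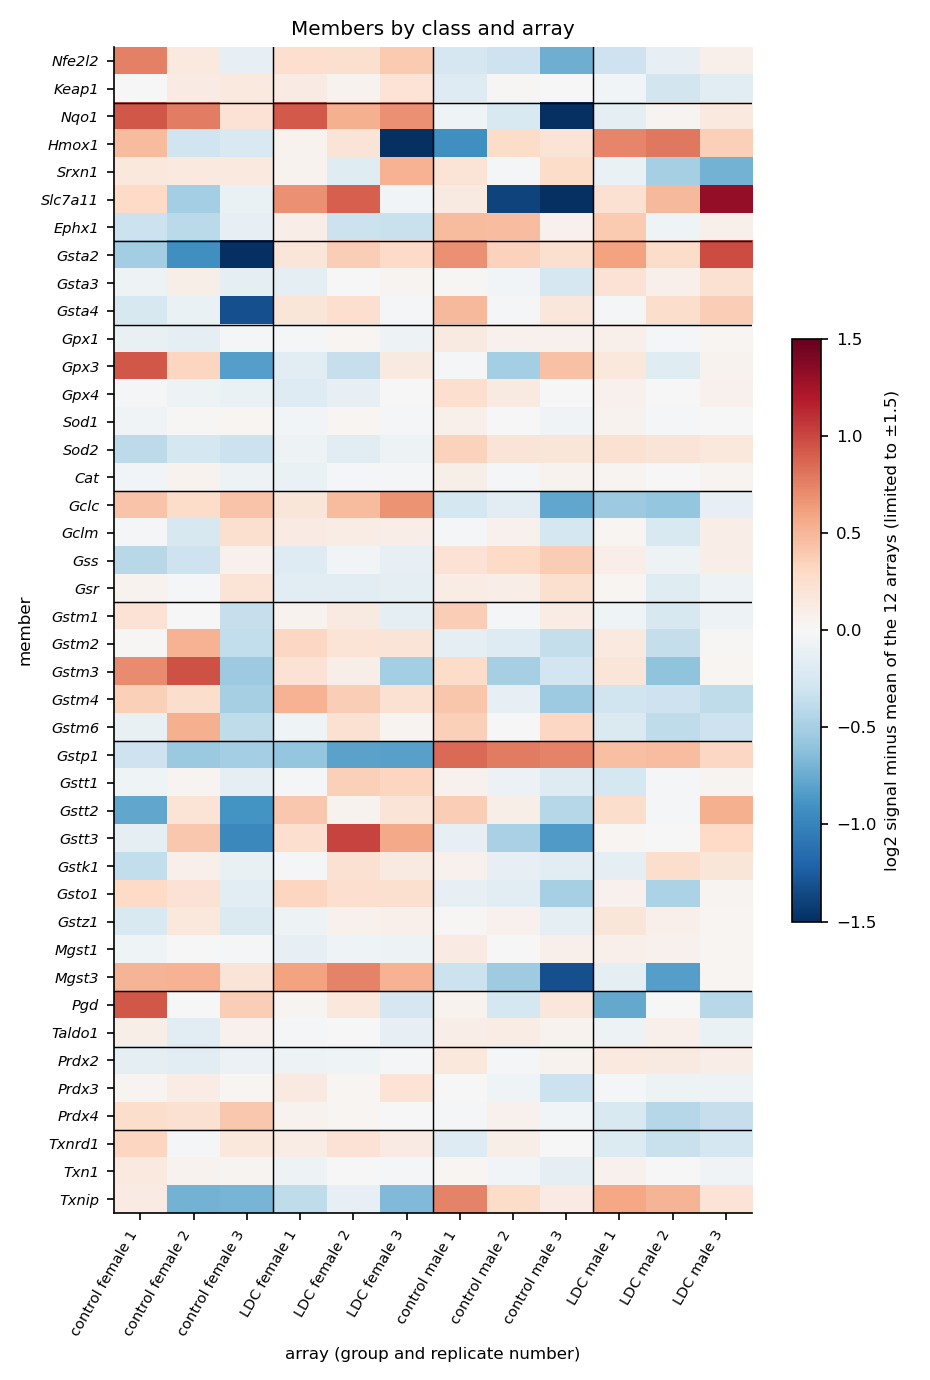
Log2 signal of each member minus its mean over the 12 arrays, limited to 1.5 in either direction, with red above and blue below that mean. Rows are the 42 members in blocks by class and columns are arrays in blocks by group. Control female 3 is blue for most transferases, and Gstp1 separates the sexes.

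More members were called between the sexes than with LDC. In control mice 6 members were called higher in males and 4 lower, against 3.59% and 4.14% of all probe sets. In LDC mice 3 members were called higher in males and 4 lower, against 3.0% and 3.29%. These 2 comparisons share no array, but their variances come from the same fit to all arrays, so their calls are not independent. Of the 11 members called in either, 6 were called in both. The number of calls depended on the variance model and the test. Without the intensity trend in the variances, 2 members were called in control mice and 1 in LDC mice, and the methods' t-test called 0 and 1. Leaving out 1 array gave 5 to 10 calls in control mice and 2 to 8 in LDC mice. The count in control mice was 6 without control female 1 and 5 without control male 2. In LDC mice it was 2 without LDC female 1, LDC female 3 or LDC male 2, and 3 without LDC female 2, LDC male 1 or LDC male 3.

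Gstp1 was higher in males in control and in LDC mice. The male signals of the control group, given above, exceeded the female ones without overlap, and the log2 difference was 1.25 (95% interval 1.06 to 1.44, adjusted p = 1.44e-06) in control mice, or 2.38-fold, and 1.14 (95% interval 0.95 to 1.33, adjusted p = 3.89e-06) in LDC mice. It was called in all 12 fits that left out 1 array. Sod2 was likewise higher in males, by 0.57 (95% interval 0.40 to 0.73, adjusted p = 0.000431) in control mice and 0.30 (95% interval 0.13 to 0.46, adjusted p = 0.034) in LDC mice, where the call was lost without any one of the 6 LDC arrays (adjusted p up to 0.13). The dimmer probe sets of Sod2 gave 0.43 (adjusted p = 0.0169), 0.06 and 0.30 in control mice and 0.08, 0.14 and 0.64 in LDC mice, with no call but the first. Gsta2 was higher in control males than in control females by 1.74 (95% interval 0.98 to 2.51, adjusted p = 0.0076), or 3.35-fold, and by 0.34 (95% interval -0.42 to 1.10, adjusted p = 0.674) in LDC mice. The change in this sex difference is the same contrast as the difference of the LDC effects above, which was not called.

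Txnip, the thioredoxin inhibitor, was at 2930.1, 1658 and 1663 in control females, 4521, 3268 and 2948 in control males, 2079.5, 2469 and 1708 in LDC females and 4049, 3857 and 3104 in LDC males. Males lay above females in both settings, with log2 differences of 0.81 (95% interval 0.34 to 1.28, adjusted p = 0.0355) and 0.82 (95% interval 0.35 to 1.29, adjusted p = 0.037). Its second probe set gave 1.00 and 0.73, without a call. Ephx1 was at 8293, 7825 and 9502 in control females, 14319.9, 14294 and 10846 in control males, 11052, 8282 and 8232 in LDC females and 13538, 9879 and 10886 in LDC males. Control males lay above control females (log2 difference 0.62, 95% interval 0.30 to 0.93, adjusted p = 0.0201), while in LDC mice the groups overlapped (log2 difference 0.32, 95% interval -0.0001 to 0.63, adjusted p = 0.264). Gss was at 1267, 1364 and 1758 in control females, 1953, 2080.1 and 2194 in control males, 1477, 1637 and 1554 in LDC females and 1803, 1595 and 1812 in LDC males. Its log2 difference was 0.52 (95% interval 0.24 to 0.79, adjusted p = 0.0235) in control mice and 0.16 (95% interval -0.12 to 0.43, adjusted p = 0.57) in LDC mice. The second Gss probe set was called in the opposite direction in control mice (-0.63, adjusted p = 0.0304), so the direction for this gene is not settled.

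Gclc and Mgst3 were lower in males. Gclc, with the signals given above, differed by -0.78 (95% interval -1.14 to -0.42, adjusted p = 0.01) in control mice and -0.86 (95% interval -1.22 to -0.51, adjusted p = 0.00552) in LDC mice and was called in all 12 fits that left out 1 array in either comparison. Its second probe set gave -0.26 in control mice (adjusted p = 0.264) and -0.74 in LDC mice (adjusted p = 0.00265). Mgst3, a microsomal transferase and peroxidase, was at 2131, 2146 and 1711 in control females, 1199.5, 1037 and 597 in control males, 2277, 2505 and 2149 in LDC females and 1357, 845 and 1527 in LDC males. Its log2 difference was -1.13 (95% interval -1.65 to -0.61, adjusted p = 0.0103) in control mice and -0.94 (95% interval -1.45 to -0.42, adjusted p = 0.0326) in LDC mice, and the ranges of the sexes were apart in both.

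Nfe2l2 was lower in control males than in control females (log2 difference -0.69, 95% interval -1.09 to -0.29, adjusted p = 0.0375), with no overlap, and the log2 difference was -0.41 (95% interval -0.81 to -0.0028, adjusted p = 0.26) in LDC mice. Its much dimmer second probe set gave -0.66 in control mice (adjusted p = 0.413) and, with the opposite sign, 0.51 in LDC mice (adjusted p = 0.586). Prdx4 was lower in males, with log2 differences of -0.30 (95% interval -0.48 to -0.11, adjusted p = 0.0469) in control mice and -0.36 (95% interval -0.54 to -0.18, adjusted p = 0.019) in LDC mice. Its other probe sets were not called, at -0.43 and 0.20 in control mice and -0.13 and 0.48 in LDC mice. Txnrd1 was lower in LDC males than in LDC females, with a log2 difference of -0.42 (95% interval -0.66 to -0.19, adjusted p = 0.0325), against -0.19 (95% interval -0.43 to 0.04, adjusted p = 0.337) in control mice. Its 2 dimmer probe sets were positive, at 0.15 and 0.91 in LDC mice and 0.59 and 0.60 in control mice, without a call. Nqo1 was 4.01-fold lower in control males by its estimate, which includes the low control male 3, and was not called (adjusted p = 0.0928).

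Several of these calls were lost when 1 array was left out. Such fits have fewer arrays, so the weight of that array and the loss of data cannot be told apart. The estimate of Txnrd1 in LDC mice, for one, stayed between -0.46 and -0.39 over these fits. In control mice the call was lost for Ephx1 without control female 1, control female 2, control male 1 or control male 2 (adjusted p up to 0.0825), and for Gss without control female 1, control female 2, control male 2 or control male 3 (up to 0.0945). It was lost for Txnip without control female 2, control female 3, control male 1, control male 2 or LDC male 2 (up to 0.132), and for Nfe2l2 without control female 1, LDC female 2, control male 2, control male 3 or LDC male 2 (up to 0.147). Prdx4 kept its call in control mice only without control female 2 or LDC male 1 (adjusted p up to 0.142 otherwise). In LDC mice the call was lost without 5 of the 6 LDC arrays for Mgst3 (all but LDC male 3, adjusted p up to 0.144), Prdx4 (all but LDC male 1, up to 0.0902) and Txnip (all but LDC female 2, up to 0.146), and without any of the 6 for Txnrd1 (up to 0.117).

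**Figure D4:**
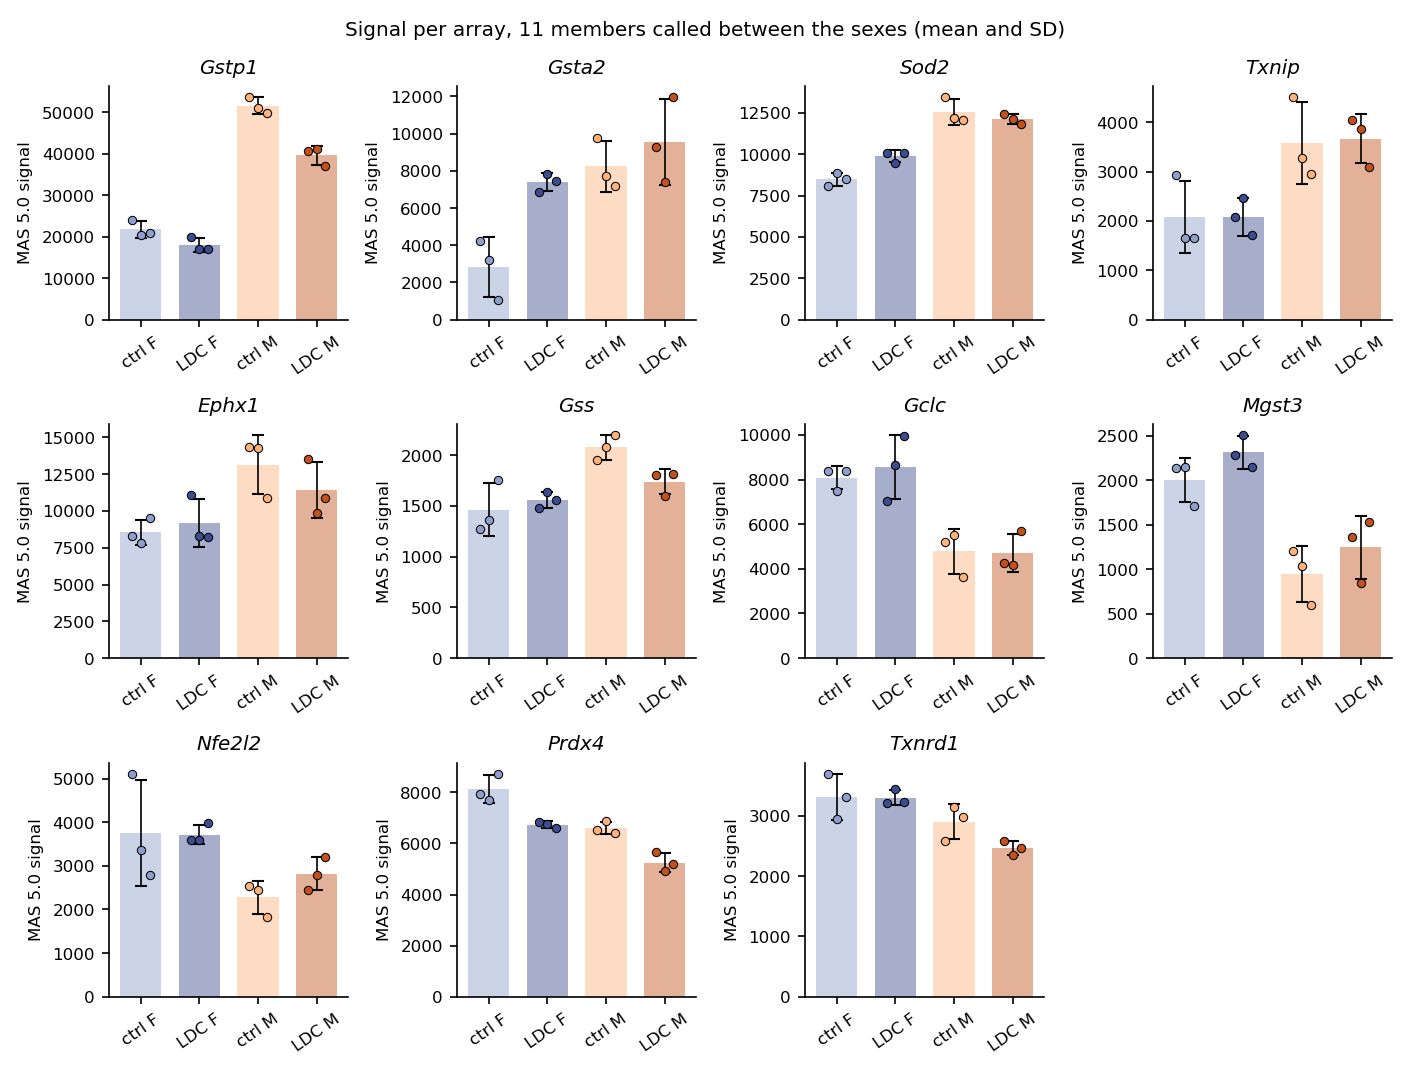
MAS 5.0 signal on a linear axis for the 11 members called between males and females in control or LDC mice, with bars at the mean of 3 arrays, error bars of 1 SD and a point per array. Gstp1, Sod2 and Txnip are higher in males, Gclc, Mgst3 and Prdx4 are lower in males, and Gsta2 is low in control females alone.

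Markers of other cells differed between the sexes of control mice as well. The summed neutrophil markers were 3454 to 6478 in control females and 1229 to 1660 in control males, with 4 of 6 called lower in males, and in LDC mice 4 of 6 were called higher in males. Summed markers of stellate cells and fibroblasts were 17750 to 29300 in control females and 12660 to 15990 in control males, with 2 of 9 called lower. Summed periportal hepatocyte markers were 49130 to 67190 in control females and 75070 to 88070 in control males, with 2 of 5 called higher. The 12 macrophage and Kupffer cell markers were all lower in control males by their estimates (median log2 difference -1.01, 5 at an unadjusted p below 0.05, 7 without overlap, 0 called), with sums of 25460 to 69630 in control females and 21410 to 21870 in control males. Of 6 lymphocyte markers 1 was called lower, and 1 of 7 pericentral, 1 of 2 pancreatic acinar and the single tested adipocyte marker were called higher. Alas2, of haem synthesis and the single red blood cell marker above the filter, was at 327 to 493 in control females and 2514 to 3812 in control males, while 4 others, Hba-a1 among them, lay below the filter. The part of these in the differences between the sexes was not tested.

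Other genes of the pathway were taken from 5 lists with 120 genes, of which 104 were tested. None was called for LDC in males or females, for the difference of the effects or for their mean (limma). The number with an unadjusted p below 0.05 in males and in females was 5 and 2 of 23 for glutathione cycle and transport, 2 and 0 of 8 for other glutathione transferases, 2 and 6 of 22 for thioredoxin, peroxiredoxin and repair genes, 10 and 4 of 36 for NRF2 regulators and other targets and 3 and 1 of 15 for NADPH supply. Over all 104 genes, 14 were higher and 8 lower in males, 10 higher and 3 lower in females, and 15 higher and 2 lower as the mean. The share of all probe sets at an unadjusted p below 0.05 was 10.2% in males, 9.01% in females and 9.28% for the mean. Their median log2 difference was 0.05 in males and 0.05 in females. Sesn2, a stress-induced sestrin, was at 245, 161 and 56.9 in control males and 406, 442 and 369 in LDC males. Female signals were 159, 186 and 61.1 in control females and 312, 321 and 436 in LDC females. All LDC arrays lay above all control arrays in both sexes, and the log2 difference was 1.63 (95% interval 0.60 to 2.65, adjusted p = 0.229) in males, 1.53 (95% interval 0.51 to 2.56, adjusted p = 0.322) in females and 1.58 (95% interval 0.85 to 2.30, adjusted p = 0.115) as the mean. Osgin1, an NRF2 target, was at 1209, 1924 and 1233 in control males and 3772, 4093 and 3069 in LDC males, without overlap (log2 difference 1.35, 95% interval 0.67 to 2.03, adjusted p = 0.118), and differed by -0.18 in females.

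Cd36, a fatty acid transporter listed among NRF2 targets, was at 2229, 2571 and 1854 in control males and 4665, 3074 and 3901 in LDC males, again without overlap (log2 difference 0.80, 95% interval 0.41 to 1.18, adjusted p = 0.102), and differed by 0.41 in females. Glo1, the glyoxalase that uses glutathione to remove methylglyoxal, was lower in all LDC males than in all control males, at 21374, 20300.2 and 20359 in control males and 16084, 17463 and 15074 in LDC males (log2 difference -0.35, 95% interval -0.55 to -0.16, adjusted p = 0.147). In females it differed by 0.12, and the difference of the effects was -0.47 (95% interval -0.74 to -0.20, adjusted p = 0.201). Selenbp1, a selenium-binding protein, and Aox3, an aldehyde oxidase, also lay lower in all LDC males than in all control males. Their log2 differences were -0.49 (adjusted p = 0.138) and -0.70 (adjusted p = 0.147) in males and 0.15 and 0.06 in females (limma). The difference of the effects was -0.64 for Selenbp1 (adjusted p = 0.1965) and -0.76 for Aox3 (adjusted p = 0.327). The genes named for LDC were chosen after their values were seen. The transporter Abcc3, listed under glutathione cycle and transport, had a mean log2 difference of 0.37 (95% interval 0.18 to 0.56, adjusted p = 0.169), and Abcc4 differed by 0.92 (95% interval 0.39 to 1.45, adjusted p = 0.175) in males and by -0.14 in females. Between the sexes, 11 of the 104 genes were called higher and 11 lower in control males, and 6 higher and 5 lower in LDC males. Of all probe sets, 3.59% were called higher and 4.14% lower in control males, and 3.0% higher and 3.29% lower in LDC males. Among the genes called, chosen after their values were seen, was Bach1, the repressor that competes with NRF2 (0.98 in control and 0.95 in LDC mice). Others were Ggct, a cyclotransferase listed under glutathione cycle and transport (-1.29 and -1.30), and Aox3, an aldehyde oxidase (1.53 and 0.76). Chac1, of the same list as Ggct, was called higher in control males and was not called in LDC mice.

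Where a member had more than 1 tested probe set, the sets often differed in sign. Of 21 such members, all probe sets shared the sign of the LDC difference for 11 in males and 12 in females, and that of the sex difference for 13 in control mice and 11 in LDC mice. None of the 75 tested probe sets of the members was called for LDC in either sex.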

How the data were processed

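Hepatic RNA of 12 mice was measured on Affymetrix Mouse Genome 430 2.0 arrays, grouped by the labels (0 columns had no sample). The deposited values are linear signal intensities that the authors obtained with MAS 5.0 in GeneSpring 12.6.1. Detection calls were not used here. The precision is limited by the 3 arrays a group.

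Of 45101 probe sets, 64 controls were left out. Symbols came from the platform's probe table (2016), updated through the gene ID to a RefSeq gene table of GRCm38.p6. This named 1 gene for 34945 probe sets, several for 932 and none for 9160. After log2 transformation, probe sets with a mean under the 40th percentile (log2 5.60, a signal of 48.6) were dropped, which left 27022.

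All 12 arrays entered a single limma fit of the 4 group means (limma 3.58.1, R 4.3.3, 8 residual degrees of freedom), with eBayes and an intensity trend (6.35 prior degrees of freedom). Calls were made at a Benjamini-Hochberg adjusted p under 0.05 over all probe sets tested. Intervals are 95%. The fit was tested on simulated data. Plots used matplotlib 3.10.9 (Python 3.11.15).

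Values in every array are given for members called in any comparison or at the methods' criterion, for the 4 with the smallest p in each LDC comparison, and for the main NRF2 regulators and targets. The members, the 5 pathway lists, the 13 marker lists, the motifs and this rule were chosen with earlier results of these data known. Alternatives were other filters, normalizations, offsets, probe sets, variance models, array weights, each sex alone, a t-test, a replicate block and leaving out each array. Same replicate numbers did not pair arrays: correlations of their deviations lay between -0.0278 and 0.0589 for 18 pairs.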

Additional observations from a re-analysis of the deposited data

How the results depend on the processing

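Over the 21 members with several tested probe sets, the sign of the LDC difference was not shared for 10 in males and 9 in females. Differences of single members were followed through every alternative mainly where called or among the smallest p-values for LDC. Of these, another probe set of the same gene reversed the direction for 5 members. Gss in control mice was -0.63 between the sexes and called. Without a call, Prdx4 was 0.20 in control and 0.48 in LDC mice, Txnrd1 was 0.15 and 0.91 in LDC mice, Srxn1 was 0.43 in males, and the Sod2 difference of effects was 0.0753 and 0.345. The other alternatives reversed none of the values of named members. The count of members called for LDC stayed at 0 in males and for the difference of the effects under all of them. Leaving out 1 array gave 0 to 1 called members in females and 0 to 1 for the mean effect. Between the sexes it gave 5 to 10 in control mice and 2 to 8 in LDC mice. The members at the methods' criterion numbered 0 to 2 in males and 0 to 3 in females when 1 array was left out.

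Without a trend in the variances, 2 members were called between the sexes in control mice and 1 in LDC mice, and the t-test called 0 and 1. At the methods' criterion, the count in males was 2 without a filter and 0 with a filter at the 60th percentile, with log2(signal + 32), with each sex fitted alone and with the t-test, which also gave 0 in females. With the replicate block the criterion was met by 2 members in males, and the sex calls numbered 9 in control and 6 in LDC mice. The cause of these changes was not tested. Of the values of single members and medians, 906 were the same under an alternative, 111 lost their call, 3 gained one and 8 reversed. A member counted as the same if its sign and call status held, whatever its size. Nqo1 in males, at 1.38 and at 0.16 without control male 3, was so counted. A median counted as the same if it moved by less than 0.2006. That limit is larger than the LDC medians themselves (-0.0016 in males and 0.0562 in females). Some fits left out an array outside the comparison. The tally is therefore no measure of how stable the sizes were. Slc7a11 is limited by signals under or near the filter.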
